A study of Mus musculus with 15 samples.

Results

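The MHC class II genes and their transactivator Ciita were examined as a family of 10 genes, namely H2-Aa, H2-Ab1, H2-Eb1, Cd74, Ciita, H2-DMa, H2-DMb1, H2-DMb2, H2-Oa and H2-Ob. They were taken by name through their Ensembl identifiers in GENCODE release M21, and all 10 were found among the 46679 genes of the files. All 10 were also among the 17481 genes that passed the filter on low counts, although Ciita, at 0 in naïve brain, passed through the tumors. RNA was sequenced from naïve brain and from end-stage tumors of 4 lines grown in the brain of C57BL/6 mice, with 3 mice in each of the 5 groups, to compare the lines. CT2A (p53 wild type) and GL261 (K-ras mutant, p53 mutant) came from methylcholanthrene-induced tumors, 005 carries activated H-ras and AKT in a p53+/- setting, and Mut3 has inactivated NF1 and p53. Tumors were started in mice of 6 to 8 weeks from 500000 cells for Mut3 and from 100000 for each of the other lines, and the mice were perfused with PBS before the tissue was taken. All 4 lines carried a retroviral reporter of GFP and firefly luciferase, and each is a single cultured line. The samples are bulk tissue, so tumor cells, brain cells and immune cells were measured together, and fewer cells of a type cannot be told apart from less RNA per cell.

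Class II molecules are pairs of an alpha and a beta chain that carry peptides taken up by a cell to its surface, where CD4+ T cells read them. H2-Aa and H2-Ab1 encode the chains of I-A and H2-Eb1 the beta chain of I-E, whose alpha chain C57BL/6 mice do not make. Cd74 is the invariant chain, which fills the groove of a new class II molecule until H2-DM exchanges its remnant for peptide, while H2-DO holds H2-DM back. Ciita is recruited to class II promoters by factors that are bound there already, and interferon gamma induces Ciita, in part through Irf1. In the healthy brain, class II molecules are scarce and are mostly found on macrophages of the borders, and microglia acquire them when they are activated.

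The factors that recruit Ciita bind a conserved stretch upstream of class II genes, in which an X box precedes a Y box at a constant distance. RefSeq promoter windows (GRCm38.p6) were read for 7 of the genes, and none for H2-Ab1 and Ciita, and Cd74 was not used. In the 250 bases before the RefSeq start, 6 of the 7 genes held AAC followed after 20 to 30 bases by TGATTGG, on the strand of the gene. Searched on both strands, the same pair of motifs stood in 299 of 32851 windows of that length (0.91%), and TGATTGG alone, the Y box, in 2375 (7.23%). The letters were chosen after the windows were seen, so the match is a description of how these promoters look. In the windows of H2-DMa these letters were not found. The 4 stretches that do not overlap an annotated exon are shown so that the shared layout can be seen, with the motifs in capitals and 23 to 26 bases between them. That of H2-DMb2 precedes a RefSeq start but lies inside the gene as GENCODE places it (34143307 to 34151555).
H2-Aa (chr17:34287863-34287908, minus strand): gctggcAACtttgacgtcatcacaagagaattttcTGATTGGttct
H2-Eb1 (chr17:34305772-34305816, plus strand): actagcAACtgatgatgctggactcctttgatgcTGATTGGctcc
H2-Ob (chr17:34238814-34238856, plus strand): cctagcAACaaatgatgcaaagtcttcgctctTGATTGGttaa
H2-DMb2 (chr17:34145122-34145167, plus strand): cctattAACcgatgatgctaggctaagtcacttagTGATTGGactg

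Total counts of the samples lay between 3105119 and 13130158 and were lowest in naïve brain (median 3993839). Levels are given as CPM, the count per 1000000 counts of the library size after TMM scaling, and 3 counts, the smallest level taken as detected, corresponded to a mean of 0.724 CPM in naïve brain. The floor takes only counting error into account. Up to 24.0% of the counts of a naïve brain were mitochondrial, as were 17.8% in 005 replicate 3, which was also the tumor closest to naïve brain in neuron and oligodendrocyte genes (mean log2 CPM 8.11, against 7.88 to 8.31 in naïve brain). A gene was called higher or lower at a Benjamini-Hochberg adjusted p under 0.05 over all tested genes, in edgeR's quasi-likelihood test, if it also changed at least 2-fold (1 on the log2 scale). The 4 comparisons with naïve brain share the same 3 naïve samples.

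The chains that carry the peptide were far higher in GL261 and 005 than in CT2A, Mut3 or naïve brain. H2-Aa (chromosome 17 from 34282744 to 34287823) was at 37.7, 47.8 and 46.8 CPM in naïve brain and at 140, 254 and 240 CPM in CT2A. It reached 4285, 1308 and 2219 CPM in GL261 and 701, 3816 and 759 CPM in 005, and lay at 45.0, 158 and 422 CPM in Mut3. Every GL261 and 005 mouse exceeded every mouse of the other groups, whereas Mut3 replicate 1 fell within naïve brain and Mut3 replicate 3 was above all CT2A mice. The log2 fold change of H2-Aa over naïve brain was 5.88 in GL261 (standard error 0.89, adjusted p = 6.85e-04), 5.32 in 005 (standard error 0.87, adjusted p = 0.00204), 2.26 in CT2A (adjusted p = 0.0282, standard error 0.76) and 2.24 in Mut3 (adjusted p = 0.0296, standard error 0.76), all called in edgeR.

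H2-Ab1 (chromosome 17 from 34257689 to 34269419) was at 7.55, 14.7 and 11.9 CPM in naïve brain, 31.6, 48.0 and 58.0 CPM in CT2A, and 13.2, 39.9 and 76.3 CPM in Mut3. In GL261 it was at 567, 179 and 347 CPM and in 005 at 159, 1156 and 179 CPM. Again GL261 and 005 lay apart from the rest, and a single mouse, 005 replicate 2, had the highest value. H2-Eb1 (chromosome 17 from 34305867 to 34316674) followed with 7.55, 17.7 and 13.3 CPM in naïve brain, 27.4, 25.5 and 38.2 CPM in CT2A and 15.2, 30.0 and 66.8 CPM in Mut3. It was at 452, 178 and 384 CPM in GL261 and at 107, 935 and 162 CPM in 005. Over naïve brain, H2-Ab1 was called higher in GL261 (log2 fold change 5.00), 005 (5.45) and CT2A (2.01, adjusted p = 0.0465 in edgeR) but had an adjusted p of 0.0563 in Mut3 at a log2 fold change of 1.93. H2-Eb1 was called in GL261 (4.72) and 005 (4.97), and had log2 fold changes of 1.25 in CT2A (adjusted p = 0.178 in edgeR) and 1.54 in Mut3 (adjusted p = 0.104).

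Cd74, the invariant chain, was at 3.06, 3.74 and 7.84 CPM in naïve brain, 9.40, 20.7 and 17.3 CPM in CT2A and 4.70, 9.69 and 27.4 CPM in Mut3. It was at 267, 85.0 and 144 CPM in GL261 and 44.8, 220 and 60.2 CPM in 005. Each GL261 and 005 mouse was thus above each mouse of the other groups. The rise over naïve brain was called in GL261 (log2 fold change 5.09, standard error 0.82, adjusted p = 9.84e-04 in edgeR) and 005 (4.48, standard error 0.80, adjusted p = 0.0029), while CT2A had a log2 fold change of 1.70 (adjusted p = 0.076) and Mut3 of 1.53 (adjusted p = 0.109).

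Ciita (chromosome 16 from 10480059 to 10528418), the transactivator of the family, was not detected in naïve brain, with a count of 0 in all 3 mice. It had 3, 0 and 6 counts in CT2A, 50, 42 and 91 counts in GL261, 15, 162 and 55 counts in 005 and 2, 7 and 17 counts in Mut3. In CPM these were 0.366, 0 and 0.775 in CT2A, 10.4, 6.79 and 11.0 in GL261, 1.55, 19.6 and 3.92 in 005 and 0.224, 0.881 and 1.495 in Mut3. The 005 mice spread most, 005 replicate 1 stood next to Mut3 replicate 3, and CT2A and Mut3 overlapped. Against the floor of 3 counts per library in naïve brain, the mean was at least 13.0-fold higher in GL261, at least 11.5-fold higher in 005 and at least 1.20-fold higher in Mut3, and that of CT2A (0.381 CPM) was below the floor. edgeR called Ciita higher than in naïve brain in GL261 (adjusted p = 0.00455), 005 (adjusted p = 0.00731) and Mut3 (adjusted p = 0.0486). Part of an exon of Dexi lies on the opposite strand of Ciita, and whether the counting used strand is not given in the sources used here.

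H2-DM, the exchange factor, is made of H2-DMa and either H2-DMb1 or H2-DMb2. H2-DMa (chromosome 17 from 34119541 to 34139101) was at 20.4, 16.9 and 26.8 CPM in naïve brain, 25.9, 24.4 and 39.1 CPM in CT2A and 14.1, 31.2 and 79.7 CPM in Mut3, so that these 3 groups overlapped. It was at 595, 226 and 335 CPM in GL261 and at 80.1, 291 and 81.4 CPM in 005. All GL261 and 005 mice were above the others, with 005 replicate 1 only just above Mut3 replicate 3. H2-DMa was called higher than in naïve brain in GL261 (log2 fold change 4.17) and 005 (2.82), and its log2 fold changes of 0.48 in CT2A and 0.97 in Mut3 turned to −0.44 and −0.12 on log2(TPM + 1). The exons of Brd2 overlap those of H2-DMa on the opposite strand.

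H2-DMb1 (chromosome 17 from 34153072 to 34160230) and H2-Aa were called higher than in naïve brain in all 4 lines, and none of the other 8 genes was. H2-DMb1 was at 1.43, 2.49 and 1.08 CPM in naïve brain, 7.94, 9.94 and 12.1 CPM in CT2A and 6.15, 14.9 and 20.2 CPM in Mut3. It was at 135, 51.7 and 74.6 CPM in GL261 and 28.7, 90.3 and 15.7 CPM in 005, where replicate 3 lay within the range of Mut3. Its log2 fold change was 5.69 in GL261 (standard error 0.74, adjusted p = 2.86e-04 in edgeR), 4.74 in 005 (standard error 0.72, adjusted p = 0.00182), 3.03 in Mut3 (standard error 0.69, adjusted p = 0.0036) and 2.57 in CT2A (standard error 0.69, adjusted p = 0.00969).

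H2-DMb2 (chromosome 17 from 34143307 to 34151555), a close copy of H2-DMb1 whose reads the counting may have split between the pair, was at 0.204, 0.249 and 0.811 CPM in naïve brain, 1.47, 2.17 and 0.904 CPM in CT2A and 0.671, 0.378 and 0.968 CPM in Mut3. It was at 18.2, 11.3 and 13.2 CPM in GL261 and 4.74, 10.7 and 5.34 CPM in 005. In this gene GL261 lay above all 005 mice too, and Mut3 overlapped naïve brain. It was called higher than in naïve brain in CT2A (log2 fold change 1.85, adjusted p = 0.0371 in edgeR), GL261 (5.08) and 005 (4.04), and had a log2 fold change of 0.73 in Mut3 (adjusted p = 0.414).

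H2-DO, the inhibitor of H2-DM, is made of H2-Oa and H2-Ob. H2-Oa (chromosome 17 from 34092340 to 34095234) was at 1.22, 0.498 and 1.08 CPM in naïve brain, 1.59, 2.64 and 0.646 CPM in CT2A and 0.336, 1.38 and 2.20 CPM in Mut3, 3 groups that overlapped. It was at 24.5, 14.6 and 15.3 CPM in GL261 and 3.91, 10.6 and 11.0 CPM in 005. As with H2-DMb2, all GL261 mice lay above all 005 mice. H2-Oa was called higher than in naïve brain in GL261 (log2 fold change 4.24) and 005 (3.15), while its log2 fold changes of 0.76 in CT2A and 0.48 in Mut3 turned to −0.0856 and −0.16 on log2(TPM + 1). Exons of an antisense gene overlap those of H2-Oa.

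H2-Ob (chromosome 17 from 34238903 to 34254414) was at 0.204, 0 and 1.35 CPM in naïve brain, 0.611, 1.09 and 1.81 CPM in CT2A and 0.224, 0.126 and 0.880 CPM in Mut3, values around the floor. It was at 6.84, 4.04 and 1.82 CPM in GL261 and 0.927, 3.50 and 3.42 CPM in 005. It was the only gene of the family in which 005 was not called higher than naïve brain (log2 fold change 2.36, adjusted p = 0.133 in edgeR), and in GL261 it passed with an adjusted p of 0.046 at a log2 fold change of 3.04.

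**Figure D1:**
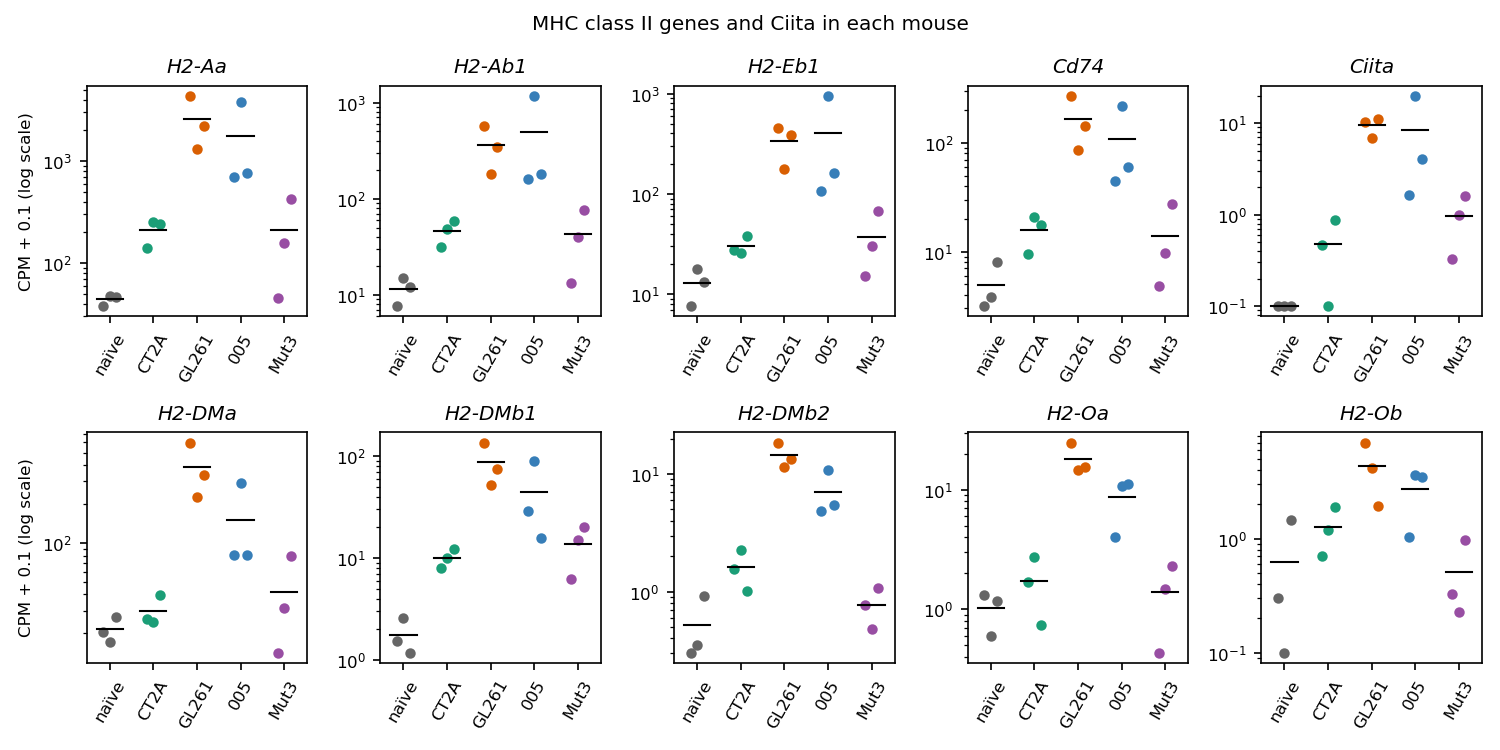
CPM plus 0.1 on a log axis of each of the 10 genes in each of the 15 mice, with 1 point per mouse and a line at the mean of each group of 3. For H2-Aa the GL261 and 005 mice sit between 701 and 4285 CPM, above all other mice, and Ciita is at 0 in naïve brain.

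Counted over the family, 10 of 10 genes were called higher than naïve brain in GL261, where 14.6% of all tested genes were called higher, and 9 of 10 in 005, where 11.6% were. In CT2A 4 of 10 were called higher (H2-Aa, H2-Ab1, H2-DMb1 and H2-DMb2), against 19.0% of all tested genes, and in Mut3 3 of 10 (H2-Aa, H2-DMb1 and Ciita), against 17.9%. In each of the 4 lines 0 genes were called lower by edgeR or by DESeq2, also at an unadjusted p under 0.05, where edgeR called 20.2% of all tested genes lower in CT2A, 19.8% in Mut3, 7.77% in GL261 and just 1.05% in 005. Without Ciita, whose fitted fold depends on the prior count, the family had a median log2 fold change over naïve brain of 5.00 in GL261 (range 3.04 to 5.88), 4.48 in 005 (2.36 to 5.45), 1.70 in CT2A (0.48 to 2.57) and 1.53 in Mut3 (−0.21 to 3.03). With Ciita at its bound, it was 4.86 in GL261, 4.26 in 005 and 1.25 in Mut3. Over all tested genes the median was −0.08, 0.01, −0.04 and 0.11 in the same order of lines.

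When any 1 mouse was left out, 9 or 10 genes were called in GL261 and 8 or 9 in 005. The number called in CT2A fell from 4 to 1 without CT2A replicate 2 or naïve brain replicate 1 or 2, and to 2 without CT2A replicate 3, GL261 replicate 3 or naïve brain replicate 3. That of Mut3 fell from 3 to 1 without Mut3 replicate 3 or any 1 of the naïve brains, and rose to 5 without 005 replicate 2. The scale mattered as well for these lines, since limma on log2(TPM + 1), in which the median of all tested genes moved to −0.38 in CT2A, −0.36 in GL261, −0.27 in Mut3 and −0.23 in 005, called 8 genes of the family in both GL261 and 005, 1 in Mut3 and 0 in CT2A. In CT2A, 1 of 10 genes had an unadjusted p under 0.05 on that scale, and 4 of 10 were called by edgeR and 5 by DESeq2. On log2(TPM + 1) the share of all calls that were higher than naïve brain also moved, from 48.4% to 19.0% in CT2A, 65.3% to 22.3% in GL261, 91.7% to 27.6% in 005 and, in Mut3, from 47.5% to 951 higher against 3811 lower calls.

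Compared directly, GL261 exceeded CT2A for 9 of 10 genes, where 3.62% of all tested genes were called higher, with a median log2 fold change of 3.43 against 0.13 over all tested genes. The log2 fold changes were 3.62 for H2-Aa (standard error 0.80, adjusted p = 0.0127 in edgeR), 3.39 for Cd74 (standard error 0.74, adjusted p = 0.0119), 4.53 for Ciita (standard error 1.09, adjusted p = 0.0248) and 3.69 for H2-DMa (standard error 0.66, adjusted p = 0.00409). H2-Ob alone did not pass, with a log2 fold change of 1.83 (adjusted p = 0.235 in edgeR). In H2-Ob the lowest GL261 mouse (1.82 CPM) and the highest CT2A mouse (1.81 CPM) lay side by side. The count fell to 4 without CT2A replicate 3 and to 5 without CT2A replicate 2 or GL261 replicate 1.

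005 exceeded CT2A for 8 of 10 genes, where 1.99% of all tested genes were called higher, with a median log2 fold change of 2.58 against 0.23 over all tested genes. The difference was 3.72 on the log2 scale for H2-Eb1 (standard error 0.77, adjusted p = 0.0166 in edgeR), for H2-Ab1 3.44 (adjusted p = 0.0273) and for Ciita 4.35 (adjusted p = 0.0444), and the exceptions were H2-DMb1 (2.16, adjusted p = 0.058) and H2-Ob (1.15, adjusted p = 0.425). Most of these calls lay close to the threshold. The count fell to 0 without any 1 of the CT2A mice, to 1 without 005 replicate 2, to 2 without any 1 of the GL261 mice, to 3 without Mut3 replicate 2 or naïve brain replicate 1 and to 4 without naïve brain replicate 2 or 3, while every log2 fold change stayed above 0. Fitted on the CT2A and 005 samples alone, edgeR also called 0 genes, and in that fit and without each CT2A mouse 9 of 10 genes had an unadjusted p under 0.05. DESeq2 called 9 genes in all samples.

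Mut3 was lower than GL261 for 10 of 10 genes, where 11.1% of all tested genes were called lower, with a median log2 fold change of −3.32. H2-DMb2 fell furthest (log2 fold change −4.35, standard error 0.58, adjusted p = 4.79e-04 in edgeR), H2-Oa had −3.76, H2-Aa −3.64, Cd74 −3.56 and Ciita −3.39. The count fell to 6 without Mut3 replicate 1. Mut3 was lower than 005 for 8 of 10 genes, where 14.0% were called lower, with a median of −3.01, among them H2-Ab1 (−3.53, adjusted p = 0.00832 in edgeR) and H2-DMb2 (−3.31, adjusted p = 0.00202). H2-DMb1 (−1.70, adjusted p = 0.0544 in edgeR) and H2-Ob (−2.57, adjusted p = 0.0679) did not pass. That count fell to 4 without 005 replicate 2 or Mut3 replicate 2 and to 5 without Mut3 replicate 1, and fitted on the Mut3 and 005 samples alone it was 1.

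Between the higher pair of lines and between the lower pair, no gene of the family was called. For 005 against GL261 the log2 fold changes ran from −1.35 for H2-DMa (standard error 0.60, adjusted p = 0.314 in edgeR) to 0.45 for H2-Ab1 (standard error 0.72, adjusted p = 0.853), with 2.62% of all tested genes called. H2-Ab1 and H2-Eb1 had positive values and the other 8 genes negative ones, but without 005 replicate 2 the values of H2-Ab1 and H2-Eb1 were −1.10 and −1.33. For Mut3 against CT2A they ran from −1.42 for H2-Ob (standard error 0.96, adjusted p = 0.355 in edgeR) to 1.13 for Ciita (standard error 1.09, adjusted p = 0.536), with 12.8% of all tested genes called. With standard errors of 0.49 to 0.88 for the first pair and 0.56 to 1.09 for the second, a 2-fold difference could go undetected in either pair. DESeq2 also called 0 genes in both pairs, and 1 gene for 005 against GL261 and 0 for Mut3 against CT2A had an unadjusted p under 0.05 in edgeR.

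**Figure D2:**
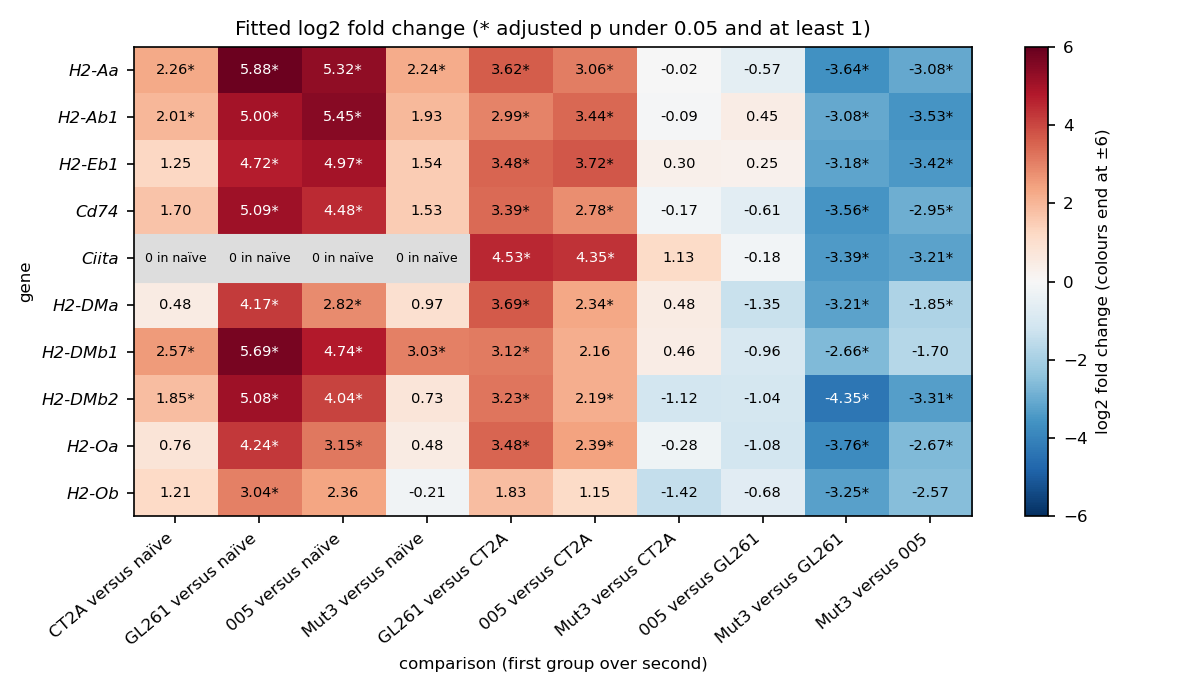
Fitted log2 fold change of each gene (rows) in each of the 10 comparisons of 2 groups (columns), as colour and number, with an asterisk at an adjusted p under 0.05 and an absolute value of at least 1. The columns of 005 against GL261 and Mut3 against CT2A hold no asterisk, and Ciita over naïve brain is left grey because it was at 0 there.

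Levels of different genes were compared per length, in TPM as deposited. Whether the genes were captured and mapped equally well was not tested, so order and proportions are those of this scale. On it, the T cell markers Cd3d, Cd3e and Cd3g were far apart, at 22.6, 0.756 and 335 TPM in 005 replicate 2. H2-Aa had the highest mean in all 5 groups, from 34.7 TPM in naïve brain to 1087 TPM in GL261, and H2-Ab1 was second in each, from 11.5 TPM in naïve brain to 296 TPM in 005. H2-Oa, H2-DMb2, H2-Ob and Ciita were the lowest genes in every group, and Ciita did not exceed 1.24 TPM in any mouse. The summed TPM of the family was 1575 ± 663 in GL261 and 1388 ± 1292 in 005, against 146 ± 122 in Mut3, 126 ± 20.2 in CT2A and 67.7 ± 24.1 in naïve brain (SD, n = 3 each). H2-Aa made up 51.6% ± 2.85 of that sum in naïve brain, 57.5% ± 7.58 in Mut3, 62.0% ± 2.27 in 005, 63.3% ± 3.86 in CT2A and 68.6% ± 2.29 in GL261 (SD, n = 3 each). The share in GL261 (66.7% to 71.2%) overlapped that in CT2A (60.5% to 67.7%).

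**Figure D3:**
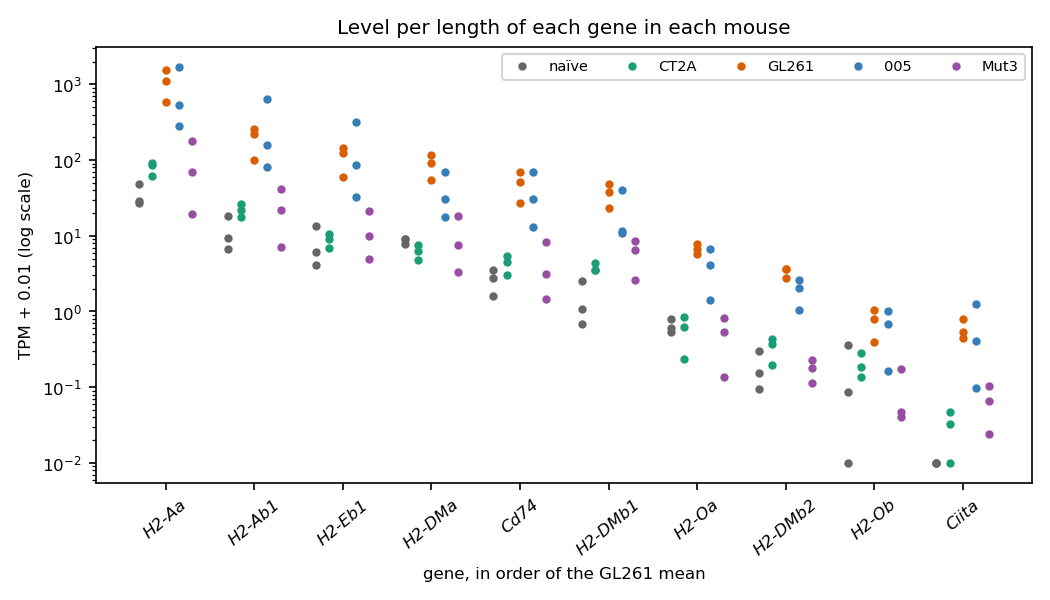
TPM plus 0.01 on a log axis for the 10 genes, ordered by their mean in GL261, with 1 point per mouse coloured by group. H2-Aa is the highest gene in each group, with means from 34.7 to 1087 TPM.

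On the same scale and with the same limit, the proportions within the family were less alike than its order. The ratio of H2-Aa to H2-Ab1, the chains of I-A, was 5.09 to 6.03 in GL261 and no more than 4.41 in any other mouse. The ratio of H2-Aa to Cd74 lay between 8.35 and 24.3 over all mice. The chains (H2-Aa, H2-Ab1 and H2-Eb1) summed to 4.17 to 6.74 times the TPM of H2-DM in naïve brain, 5.18 to 8.90 times in Mut3, 8.82 to 13.8 times in CT2A, 9.24 to 11.4 times in GL261 and 13.2 to 23.5 times in 005. H2-DM summed to 25.6 to 37.7 times H2-DO in Mut3 and to 5.68 to 24.5 times in the other mice, and rested on few reads in Mut3, where replicate 1 had 3 counts of H2-Oa. With 3 mice against 3, no exact test of such ratios can go below a p of 0.10, so they are given as values.

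Among the genes that lead from interferon gamma to Ciita, edgeR called the transcription factor Irf1 higher in 3 lines and the receptor chains and kinases higher in no line. Irf1 was at 8.36, 11.2 and 8.11 CPM in naïve brain and at 249, 102 and 177 CPM in GL261. It was called in GL261 (log2 fold change 4.25), 005 (3.62) and CT2A (2.32), and had a log2 fold change of 1.49 in Mut3 (adjusted p = 0.0602 in edgeR). Socs1, a feedback inhibitor of the pathway, was called in the same 3 lines. Ifng itself was at 0 to 0.270 CPM in naïve brain and was called higher in 005 alone (log2 fold change 4.54, adjusted p = 0.0382 in edgeR), where replicate 2 had 9.54 CPM and the others 1.24 and 1.71 CPM. Of 7 genes of this list, edgeR called 3 higher in 005, 2 each in CT2A and GL261, and 0 in Mut3. Of all tested genes, edgeR called 19.0% (CT2A), 17.9% (Mut3), 14.6% (GL261) and 11.6% (005) higher. At an unadjusted p under 0.05 and by DESeq2, 1 of the 7 was higher in Mut3 and 4 of the 7 in 005. These 4 cannot all be Ifng, Irf1 and Socs1, so a receptor chain or kinase was among them. In GL261, 4 were higher at an unadjusted p under 0.05 in edgeR and 2 by DESeq2. In Mut3, the receptor chain Ifngr2 (−1.19) and the kinase Jak1 (−1.45) were called lower, as were 19.8% of all tested genes. Between GL261 and CT2A, which differed in 9 genes of the class II family, edgeR called 0 of these 7 genes, although 1 was higher and 1 lower in GL261 at an unadjusted p under 0.05 and by DESeq2. Irf1 lay at 102 to 249 CPM in GL261 and at 34.6 to 65.5 CPM in CT2A. Jak1 lay at 41.7 to 50.4 CPM in GL261 and at 77.4 to 104 CPM in CT2A. The lack of calls thus does not show equal levels. Irf1, Socs1 and Ifngr2 were called lower in Mut3 than in GL261.

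Another list held the factors that sit on class II promoters and recruit Ciita. Of the 7 genes (Rfx5, Rfxap, Rfxank, Creb1, Nfya, Nfyb and Nfyc), 1 was called higher than naïve brain, Rfxank, a subunit of the RFX complex, with log2 fold changes of 2.01 in Mut3, 1.97 in CT2A and 1.72 in GL261, a count near the share of all tested genes called higher in these lines (17.9%, 19.0% and 14.6%). In 005 edgeR called 0, with 4 higher at an unadjusted p under 0.05. DESeq2 called 4 higher in CT2A, 2 each in GL261 and Mut3, and 1 in 005. Against CT2A edgeR again called 0 in GL261 and in 005, where 1 and 2 were lower at an unadjusted p under 0.05 and DESeq2 called 1 lower in each. Over naïve brain the 7 genes had a median log2 fold change of 0.95 in CT2A, 0.81 in 005, 0.64 in Mut3 and 0.40 in GL261.

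A further list held 7 proteases and reductases that prepare peptides for class II in endosomes. Of these, 6 were called higher than naïve brain in GL261, 6 in 005, 4 in CT2A and 1 in Mut3, against 14.6%, 11.6%, 19.0% and 17.9% of all tested genes. Ctsb, Ctsd and Lgmn were not called in CT2A, and the direction of their change depended on the scale. Their mean CPM of 726, 670 and 20.5 in CT2A lay above that of naïve brain (406, 375 and 14.0). Their mean TPM of 30.3, 98.8 and 2.73 lay below that of naïve brain (33.6, 107.7 and 4.18). In edgeR all 7 genes of the list had a positive log2 fold change in CT2A. Ifi30, the thiol reductase of the endosome, was called in all 4 lines (log2 fold changes 2.56, 4.03, 4.56 and 4.29 in CT2A, GL261, 005 and Mut3), and in Mut3 it was at 126, 96.5 and 167 CPM against 5.51, 8.72 and 5.68 CPM in naïve brain. Ifi30 was called higher in Mut3 than in CT2A (1.72, adjusted p = 0.0398 in edgeR). Ctss, the protease that cleaves the invariant chain in most antigen-presenting cells, was called in CT2A (1.95), GL261 (3.25) and 005 (3.64) and had a log2 fold change of 0.25 in Mut3 (adjusted p = 0.72). Ctsl, which does so in thymic epithelium, was the one gene of this list called lower in GL261 than in CT2A (−1.47, adjusted p = 0.0409 in edgeR), at 734, 598 and 434 CPM against 1481, 1841 and 1577 CPM.

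Of 4 genes for partners and ligases of class II at the surface, 3 were tested. edgeR called 2 of these lower than naïve brain in CT2A and 2 in Mut3, where 20.2% and 19.8% of all tested genes were called lower. Marchf1, a ligase that removes class II from the surface of dendritic and B cells, was called lower than naïve brain in CT2A (log2 fold change −1.97) and Mut3 (−3.17), and lower in Mut3 than in GL261 (−2.79). Cd4, the coreceptor, was called lower than naïve brain in CT2A and Mut3, with naïve brain at 1.22, 26.4 and 4.597 CPM, a spread that rested on replicate 2. Marchf8 was called in no tumor against naïve brain, and Lag3 did not pass the filter on low counts. H2-Eb2, a beta chain gene beside H2-Eb1, was called higher in GL261 than in naïve brain (6.36, adjusted p = 0.0107 in edgeR) and than in CT2A (5.05, adjusted p = 0.0259), at 8.50, 3.39 and 11.8 CPM in GL261 and at most 3.78 CPM in any other mouse. Its values in naïve brain were 0, 0.249 and 0 CPM, so the fold over naïve brain depends on the prior count. The I-E alpha chain gene, a polymorphic pseudogene in this annotation, had a single count in GL261 replicate 1 and 0 elsewhere.

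Since class II molecules are carried by myeloid cells, the family was set beside markers of 9 monocyte and macrophage genes (Ccr2, Ly6c2, Lyz2, Adgre1, Fcgr1, Cd68, Itgam, Mrc1 and Ms4a7). None of these was at 0 in all mice of a group, and they summed to 198 to 205 CPM in naïve brain, 821 to 1268 in CT2A, 1027 to 2224 in GL261, 1648 to 10880 in 005 and 249 to 972 in Mut3. GL261 and CT2A did not separate by them. Of the 9 markers, 0 were called between GL261 and CT2A by edgeR or by DESeq2, and 0 had an unadjusted p under 0.05 in edgeR, with a median log2 fold change of 0.38, where the class II family had 3.43. Of all tested genes, 3.62% were called higher in GL261 than in CT2A. Between 005 and CT2A, 2 of 9 were called higher (Lyz2 and Mrc1), where 1.99% of all tested genes were, with a median of 0.94 against 2.58 for the family. Between Mut3 and CT2A, 3 of 9 were called lower (Ly6c2, Fcgr1 and Itgam), with a median of −1.32 against −0.05 for the family. Of all tested genes, 12.8% were called in either direction between Mut3 and CT2A. Other marker lists differed more between GL261 and CT2A. All tested microglia, dendritic cell and T cell markers had positive log2 fold changes there, with medians of 0.94, 1.25 and 1.06. edgeR called 0 of them, but 5 of 8, 2 of 8 and 2 of 6 were higher at an unadjusted p under 0.05, and DESeq2 called 1, 0 and 0. Of 5 tested B cell markers, edgeR called 1 higher.

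The mean log2 CPM of H2-Aa, H2-Ab1, H2-Eb1 and Cd74 minus that of the macrophage markers was 0.39, 0.46 and 0.30 in CT2A, the lowest and tightest of the tumors. It was 3.61, 2.98 and 3.36 in GL261, 1.72, 2.83 and 2.30 in 005, 1.54, 1.65 and 2.45 in Mut3 and 0.33, 1.75 and 1.14 in naïve brain. Against these markers CT2A lay below the other 3 lines without overlap, and GL261 lay above all of them. Other markers gave another order. Against the microglia markers, CT2A (1.37 to 2.17) overlapped Mut3 (1.41 to 3.59) and GL261 (3.23 to 4.98) overlapped 005 (2.82 to 6.11). Against Ptprc, CT2A (0.43 to 0.74) overlapped Mut3 (0.61 to 3.88), and Mut3 replicate 2 lay above all GL261 mice (2.69 to 3.26). The difference is one of log scale means and does not say which cells held the RNA.

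**Figure D4:**
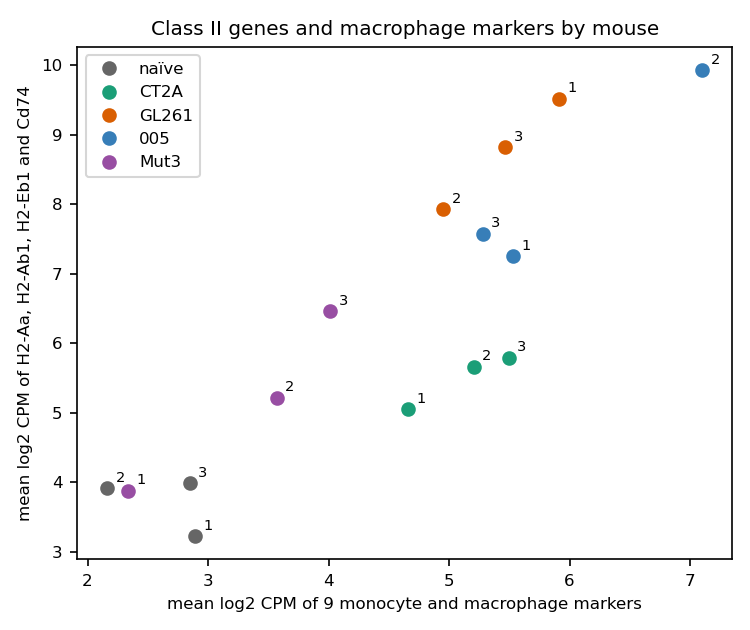
Mean log2 CPM of H2-Aa, H2-Ab1, H2-Eb1 and Cd74 (vertical) against that of 9 monocyte and macrophage markers (horizontal), with 1 point per mouse, numbered by replicate and coloured by group. The CT2A mice lie between 4.66 and 5.49 on the horizontal axis, beside the GL261 mice at 4.95 to 5.92, but at 5.05 to 5.79 on the vertical axis against 7.93 to 9.52.

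Markers of other cells were set beside the family as well. Ptprc, the pan-leukocyte gene, was called higher than naïve brain in CT2A, GL261 and 005 (log2 fold changes 3.50, 4.36 and 5.42) and not in Mut3 (1.46). Of 8 dendritic cell markers 2 were called higher than naïve brain in CT2A, GL261 and 005 each and 1 in Mut3, where 19.0%, 14.6%, 11.6% and 17.9% of all tested genes were, and they summed to 8.47 to 11.8 CPM in naïve brain, 6.72 to 12.1 in CT2A, 18.3 to 28.2 in GL261, 19.0 to 69.9 in 005 and 11.5 to 16.3 in Mut3. Clec9a was at 0 in naïve brain. Of 8 B cell markers 5 were tested, and they were called higher in 2 cases each in GL261 and 005, where 14.6% and 11.6% of all tested genes were. In GL261 the sum of the 8 markers was 28.0 to 152 CPM, of which Cr2 made up 107, 1.46 and 106 CPM, so that 2 of the 3 mice were high in Cr2. Blk was at 0 in GL261, naïve brain and Mut3. Microglia markers were called higher in GL261 in 2 of 8 cases and lower in 3 of 8 in CT2A and 5 of 8 in Mut3, and in 005 edgeR and DESeq2 called 0 of 8, with 1 higher and 1 lower at an unadjusted p under 0.05. Of all tested genes, 14.6% were called higher in GL261, and 20.2% in CT2A and 19.8% in Mut3 were called lower. The microglia markers summed to 224 to 274 CPM in naïve brain, 165 to 212 in CT2A, 320 to 414 in GL261, 244 to 363 in 005 and 83.9 to 111 in Mut3. Of 7 T cell markers 6 were tested, of which 5 were called higher in CT2A, GL261 and 005 each and 1 was called lower in Mut3. The shares of all tested genes were 19.0%, 14.6% and 11.6% higher in these lines and 19.8% lower in Mut3. The T cell markers summed to 31.4 to 64.6 CPM in naïve brain, 44.6 to 80.2 in CT2A, 113 to 177 in GL261, 107 to 573 in 005 and 8.73 to 29.6 in Mut3. Neuron and oligodendrocyte genes, 9 in all, were called lower in 7 cases in CT2A and 8 in Mut3, where 20.2% and 19.8% of all tested genes were. In GL261 and 005, where 7.77% and 1.05% of all tested genes were called lower, edgeR called 0 of the 9. Of the 9, 6 and 2 were lower at an unadjusted p under 0.05 and DESeq2 called 5 and 1 lower. The part of these cells in the level of the family was not tested.

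Within 005, replicate 2 stood out in class II genes and in macrophage, T cell, dendritic cell and Ptprc markers. It had the highest value of the 3 mice for all genes of the family except H2-Oa, where replicate 3 was higher, and its macrophage marker mean (log2 CPM) of 7.101 was the highest of all 15 mice. Without it, 8 genes of the family were called higher than naïve brain, and 6 of 10 had an unadjusted p under 0.05 against GL261, with 0 called. Microglia and B cell marker means were highest in replicate 3 among the 005 mice (log2 CPM 4.76 and 2.95, against 3.82 and 2.70 in replicate 2).

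The genes whose log2 CPM ran most like H2-Aa, H2-Ab1, H2-Eb1 and Cd74 over the 15 mice, outside the family, were Cd40 (Pearson r 0.97), Il18bp (0.96), Irf8 (0.96), Icam1 (0.96), Slamf8 (0.96), Serpina3f (0.95), Ubd (0.95), Ly6i (0.95), Myo1f (0.94) and Ctsw (0.94). The mice of a group share their line, and the libraries differ in depth, so these are descriptions. Within groups, with the group means removed, r for these genes was between 0.78 and 0.94. Cd40, the costimulatory receptor of antigen-presenting cells, averaged 15.9 CPM in 005 and 12.5 CPM in GL261, and 4.17 CPM in CT2A, 2.14 CPM in Mut3 and 0.746 CPM in naïve brain. Ranked among all tested genes by the same r, Ciita had rank 11 (r 0.95), H2-DMa 13 (0.95), H2-DMb1 15 (0.95), H2-DMb2 28 (0.93), H2-Oa 70 (0.91) and H2-Ob 317 (0.82). With log2(TPM + 1) in place of log2 CPM, 6 of the 10 genes were again among the 10 most alike. Without 005 replicate 3, and with the group means removed, no more than 6 were, so the list depends on the setting.

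Of the family, 8 genes lie in 252.3 kb of chromosome 17 (34092340 to 34344645, GRCm38), with genes of the class I pathway between them. The annotation places 22 genes there, of which 14 were tested, the 8 of the family and 6 others. Psmb9 and Psmb8, subunits of the immunoproteasome, and Tap1, a chain of the peptide transporter, were called higher than naïve brain in all 4 lines. Psmb9 had log2 fold changes of 5.31 in GL261, 4.74 in 005, 4.29 in Mut3 and 3.81 in CT2A, and Tap1 of 4.63, 4.48, 2.93 and 3.08. Psmb9, Psmb8 and Tap1 were thus called in CT2A and Mut3, where 4 and 6 of the 8 genes of the family in the region were not. Of all tested genes, 19.0% and 17.9% were called higher in these lines. Tap2, the other chain of the transporter, was called in CT2A, GL261 and 005 and had a log2 fold change of 1.61 in Mut3. H2-Eb2, a class II gene outside the family, was called in GL261 alone, with log2 fold changes of 1.31 in CT2A, 3.06 in 005 and 4.01 in Mut3. Brd2, a widely expressed chromatin reader, lay between −0.49 and 0.50 in all 4 lines and was not called.

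**Figure D5:**
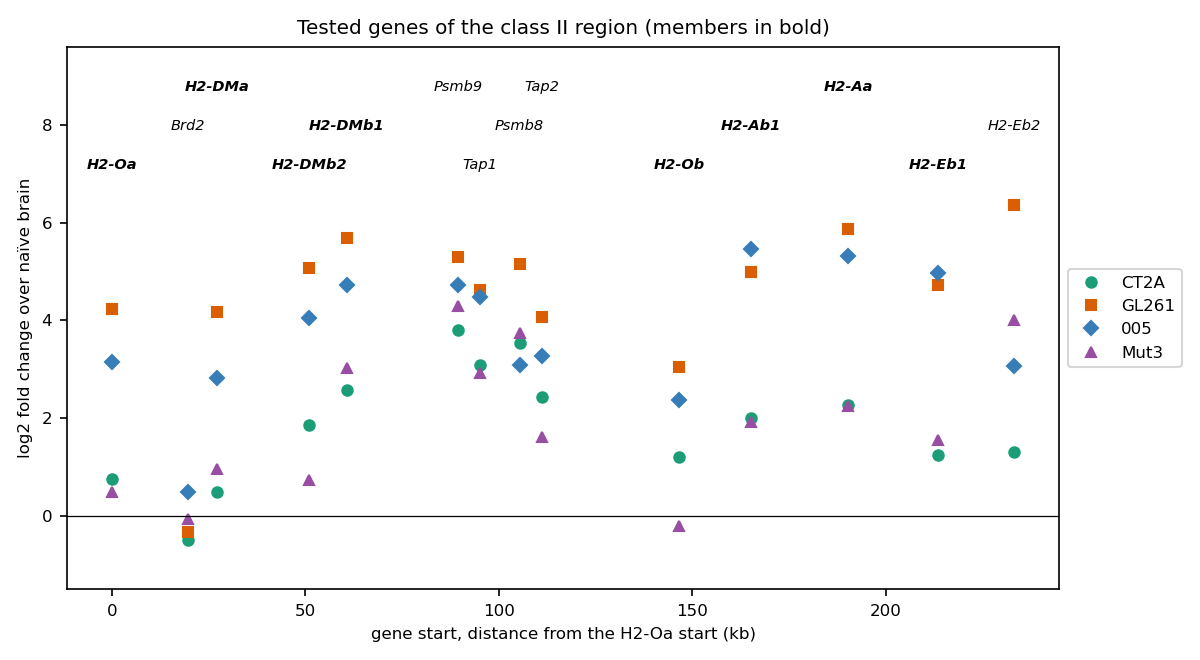
Log2 fold change over naïve brain (vertical) of the 14 tested genes of the class II region against the distance of the gene start from that of H2-Oa in kb (horizontal), with 1 marker per line. Psmb9, Tap1 and Psmb8 lie above 2.9 in all 4 lines, whereas H2-Ob and H2-Oa lie below 1.3 in CT2A and Mut3.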

How the data were processed

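RNA was measured in 15 samples, 3 mice in each of 5 groups, which were assigned by the sample labels. The authors aligned the reads with STAR 2.4.2a to the GENCODE mouse genome, and the submitters' processing notes also name Salmon, DESeq2 1.18.1 and the build mm10, with no role given. The authors deposited estimated counts per gene, without normalization between samples, and TPM values, scaled to gene length and to a common total. In 4644 genes, counts divided by TPM gave a constant per gene times a constant per sample, so both tables hold the same measurement.

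The counts were rounded to whole numbers, filtered with filterByExpr, normalized by TMM and tested with edgeR 4.0.16 (R 4.3.3) on all 15 samples with a mean per group. The standard error is the log2 fold change over the square root of F. On simulated counts for GL261 against naïve brain (17481 genes), these steps called 0 of 67 genes changed 2-fold, 24.2% of 62 changed 4-fold and 71.6% of 67 changed 8-fold, with 1 false call of 64. Far fewer genes were changed there than were called in the data (2555 higher and 1358 lower). The adjusted p depends on that number, so these shares need not hold for the data. Of the gene identifiers, 46201 of 46679 matched GENCODE M21 (GRCm38).

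The 10 genes and the lists of pathway and marker genes were chosen with earlier results of these data known. Named besides are the 10 genes most correlated with the mean z-score of H2-Aa, H2-Ab1, H2-Eb1 and Cd74. Total counts of 3105119 to 13130158 limit what low genes can show.

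The alternatives were DESeq2 1.42.0, other size factors, other filters, only the samples compared, the replicate number as a block, limma 3.58.1 on log2(TPM + 1) or log2(TPM + 0.1), no fold threshold, adjustment over all comparisons and each mouse left out in turn. The study gives 3 mice for each group. Some genes of the lists are not reported here, and counts are over the others.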

Additional observations from a re-analysis of the deposited data

Results flagged for a closer look

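The change over naïve brain differed between lines for 35 pairs of a gene and a comparison of tumors, as tested by edgeR's direct comparison of the lines, which share the same naïve brains. The values are log2 fold changes. GL261 exceeded CT2A in H2-Aa (3.62), H2-Ab1 (2.99), H2-Eb1 (3.48), Cd74 (3.39), Ciita (4.53), H2-DMa (3.69), H2-DMb1 (3.12), H2-DMb2 (3.23) and H2-Oa (3.48). 005 exceeded CT2A in H2-Aa (3.06), H2-Ab1 (3.44), H2-Eb1 (3.72), Cd74 (2.78), Ciita (4.35), H2-DMa (2.34), H2-DMb2 (2.19) and H2-Oa (2.39). Mut3 was below GL261 in H2-Aa (−3.64), H2-Ab1 (−3.08), H2-Eb1 (−3.18), Cd74 (−3.56), Ciita (−3.39), H2-DMa (−3.21), H2-DMb1 (−2.66), H2-DMb2 (−4.35), H2-Oa (−3.76) and H2-Ob (−3.25). Mut3 was below 005 in H2-Aa (−3.08), H2-Ab1 (−3.53), H2-Eb1 (−3.42), Cd74 (−2.95), Ciita (−3.21), H2-DMa (−1.85), H2-DMb2 (−3.31) and H2-Oa (−2.67). Single outlying mice were not tested for.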

How the results depend on the processing

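Of the results past the threshold, 0 of 1556 values under the alternatives changed sign. With at least 10 counts in every sample, only 5 of the 10 genes were tested, and of these 5 were called in GL261, 5 in 005, 2 in CT2A and 1 in Mut3 against naïve brain, 5 in GL261 and 5 in 005 against CT2A, and 5 in Mut3 against GL261 and against 005. Against naïve brain, CT2A had 0 genes called on log2(TPM + 1), 1 on log2(TPM + 0.1) and 1 with adjustment over all 10 comparisons, and Mut3 had 1 under each of these. 005 against CT2A had 5 genes called with RLE size factors and 0 when only the samples compared were fitted, and Mut3 against 005 had 1 in the latter fit. The cause was not tested for these, other than that fewer samples or genes enter some fits. On log2(TPM + 0.1), the share of calls that were higher was 60.6% for 005 against CT2A, against 48.4% in edgeR.

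When each mouse was left out in turn, the number of genes called was 9 to 10 in GL261, 8 to 9 in 005 and 1 to 5 in both CT2A and Mut3 against naïve brain, 4 to 9 in GL261 and 0 to 8 in 005 against CT2A, 6 to 10 in Mut3 against GL261, 4 to 10 in Mut3 against 005, and 0 in the other pairs of lines.

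The replicate numbers name different mice. Same-numbered mice did not deviate together (correlations −0.33 to 0.26, 1 of 30 pairs over 0.1), and 2 of 15 samples correlated best with their own number, so the numbers were not taken as pairs. With the replicate number as a block, 2 genes were called in CT2A and 1 in Mut3 against naïve brain, and 1 in 005 against CT2A.

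Signs turned only in results under the threshold. In CT2A against naïve brain, H2-DMa had −0.44 on log2(TPM + 1) and −0.50 on log2(TPM + 0.1), and H2-Oa −0.0856 and −0.27. In Mut3 against naïve brain, H2-DMa had −0.12 and −0.17, H2-DMb2 −0.0113 and −0.0142, and H2-Oa −0.16 and −0.53. In Mut3 against CT2A, H2-Aa had 0.15 and H2-Ab1 0.084 with library size in place of TMM, and H2-Aa had 0.0069 without a filter, 0.024 with at least 10 counts and 0.013 in the samples compared. In 005 against GL261, H2-Eb1 had −0.12 with the block, −0.0923 on log2(TPM + 1) and −0.10 on log2(TPM + 0.1). With 1 mouse left out, the log2 fold change in Mut3 against naïve brain was −1.42 to 1.82 for H2-Ob and −0.17 to 0.96 for H2-Oa. In Mut3 against CT2A it was −1.17 to 0.41 for H2-Aa, −0.91 to 0.29 for H2-Ab1, −0.54 to 0.62 for H2-Eb1, −1.25 to 0.20 for Cd74, −0.51 to 0.85 for H2-DMa, −0.0493 to 0.75 for H2-DMb1 and −1.027 to 0.15 for H2-Oa, lowest in each case without Mut3 replicate 3. In 005 against GL261 it was −1.10 to 0.88 for H2-Ab1, −1.33 to 0.71 for H2-Eb1 and −1.77 to 0.32 for Ciita, lowest without 005 replicate 2.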
